A study of Homo sapiens with 10 samples.

Results

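Side population cells were compared with non-side population cells of cultured human gastric cancer lines, gene by gene. The comparison used 8 of the 10 arrays of the series, namely the 4 arrays titled as side population cells and the 4 titled as non-side population cells. Each group carried the replicate letters a to d, and the titles named the same replicate group for both arrays of a letter. The 2 remaining arrays held unsorted cells. They shared in the fit's estimate of the spread and in the mean levels by which probe sets and tested genes were chosen. One probe set stood for each gene, the one with the highest mean level among those annotated with exactly 1 gene symbol. This left 19775 genes, of which the 9888 with a mean level at or above the median were tested.

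A side population is the small fraction of cells that stays dim after staining with the DNA-binding Hoechst dye, because membrane pumps export the dye. The pumps best known for this are ATP-binding cassette (ABC) transporters, above all ABCG2, and to some extent ABCB1. Cells sorted by this property have been studied in many tumours as candidates for cells with stem-like growth and drug resistance, while the dye-retaining remainder, the non-side population, serves as the reference. The question the comparison addresses is which genes the dye-effluxing cells express at another level than the dye-retaining cells.

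All arrays carried the same origin label, which names AGS and MKN 45, both established lines from human gastric adenocarcinoma. A separate source label named AGS for 8 arrays. For side population replicates a and b it named no line, so the line of those cells was not settled by the labels, and a difference between lines cannot be told apart from a difference between populations there. The cells grew in RPMI medium with fetal bovine serum, and no treatment beyond culture and sorting was named. No label states whether the letters stood for separate cultures. A p-value here thus reflects only how far these arrays spread, and that spread may be technical. In bulk RNA of this kind, fewer cells expressing a gene and less RNA per cell cannot be told apart.

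The sorted arrays were scaled alike by the authors, with a trimmed mean intensity between 500.065 and 500.095. Their median intensity lay between 62.8 and 85.4. The ratio of the 3′ to the 5′ control probe set of beta-actin, a measure of RNA integrity, was 3.34 in side population replicate a and 0.987 to 1.28 in the other 7 sorted arrays. The 5′ control probe set of 18S ribosomal RNA read 851 in side population replicate d and 563 in non-side population replicate c, against 22182 to 33704 in the other 6. The part of these array properties in the results was not tested. Correlations of log2 intensity over the tested genes were 0.936 to 0.973 among side population arrays, 0.883 to 0.966 among non-side population arrays and 0.911 to 0.978 between the groups, so the ranges within and between the populations overlapped.

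Both groups carried the epithelial genes that the labels call for. EPCAM, an adhesion protein of epithelial cells, read 18604 to 21410 in the side population and 17745 to 29017 in the non-side population. The keratins KRT8, KRT18 and KRT19, intermediate filament proteins of simple epithelia, read between 12795 (KRT19) and 44868 (KRT18) on all 8 arrays. PTPRC (CD45), which defines blood cells, read at most 23.1. Of 14 blood and endothelial markers measured, LYZ and HBB passed the filter on low levels. LYZ, a lysozyme that gastric epithelium also makes, read 20247 to 32403. Of 18 epithelial markers measured, 16 were tested, with a median difference of -0.02 on the log2 scale. Of 22 mesenchymal and fibroblast markers, 6 were tested, with a median of -0.18.

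No gene passed the test between the populations. Differences are given as side minus non-side population on the scale log2(intensity + 6.1), where a value of 1 is a doubling, and come from limma's moderated linear model with Benjamini-Hochberg adjustment. At an adjusted p under 0.05 the model called 0 of 9888 genes (0%), and the smallest adjusted p was 0.993. At an unadjusted p under 0.05 it marked 310 genes as higher (3.14%) and 120 as lower (1.21%) in side population cells. The smallest unadjusted p was 0.000159. The values of single genes below are therefore descriptions of these 8 arrays, and none of them passed the adjusted test.

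The differences were small in size. The middle 50% of genes lay between -0.11 and 0.24, while 1% of genes lay below -0.66 and 1% above 0.66. Only 4 genes were higher by 1 or more and 20 were lower by 1 or more, with extremes of 1.34 and -1.99. The median gene was higher by 0.04, and 5664 genes (57.3%) had the higher mean in side population cells. Centring each array on its own median instead added 0.14 to every difference, so that the median gene was higher by 0.18, and the genes at an unadjusted p under 0.05 numbered 967 higher and 42 lower, so that 95.8% of them were higher in place of 72.1%. The genes and arrays used moved the split as well. It was 451 higher and 477 lower without the filter on low levels, 434 and 415 over every probe set, 126 and 186 with only the arrays labelled AGS, and 101 and 105 without side population replicate a. An excess of higher genes is therefore no stable property of these data.

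The precision of the comparison can be read from the intervals. The median gene's standard error was 0.25, which gives a 95% interval reaching 0.53 to either side. For 8246 genes (83.4%) the whole interval lay within 1 log2 unit of 0, and for 2160 genes (21.8%) within a 1.5-fold difference. Each interval was taken on its own and concerns the mean over these arrays. It sets no bound on the difference within single letters, which disagreed, as described below. A p that misses the threshold does not show that genes were alike in both populations.

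**Figure D1:**
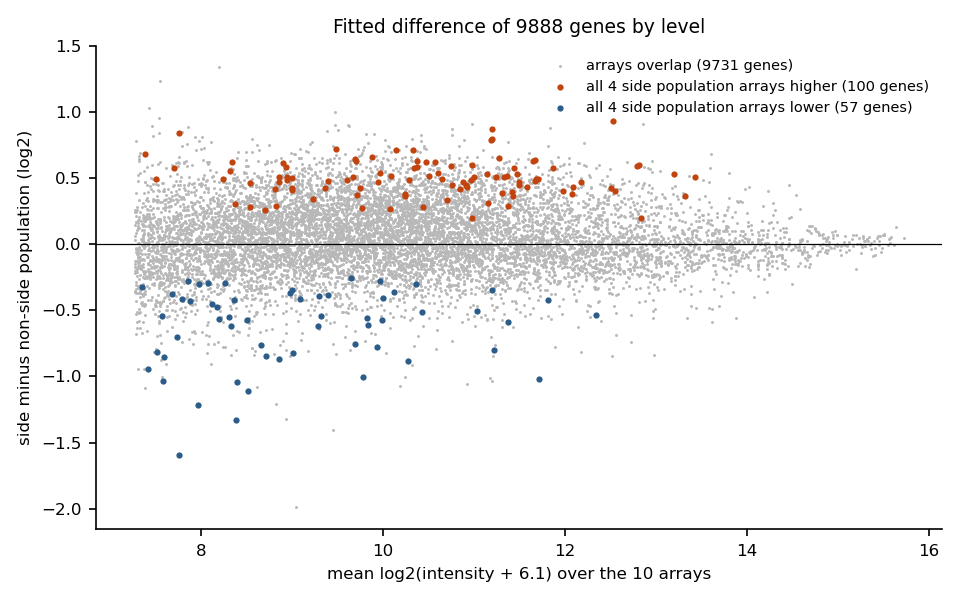
Fitted difference between side and non-side population (vertical axis, log2) against mean level (horizontal axis, mean log2(intensity + 6.1) over 10 arrays) for the 9888 tested genes, each a point. Orange points are the 100 genes whose 4 side population arrays all lie above the 4 non-side population arrays, blue points the 57 genes with all 4 below, and grey points all other genes. The coloured points lie inside the cloud of grey points for the most part, and the larger negative differences belong to genes of low level.

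The replicates did not show the same differences. Taking side minus non-side population within each letter, the differences over all tested genes correlated at 0.64 between letters a and b, where 76.4% of genes had the same sign. Letters c and d correlated at -0.23, with 40.4% of genes sharing a sign. Letter c ran against a (-0.34) and against b (-0.44), and letter d correlated with a at 0.17 and with b at 0.18. The arrays are matched here by their label letter alone. These correlations are across genes, which are not independent replicates, and they carry no p. In letter a, 749 genes were higher and 237 lower by 1 or more, whereas in letter c it was 265 higher and 512 lower.

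**Figure D2:**
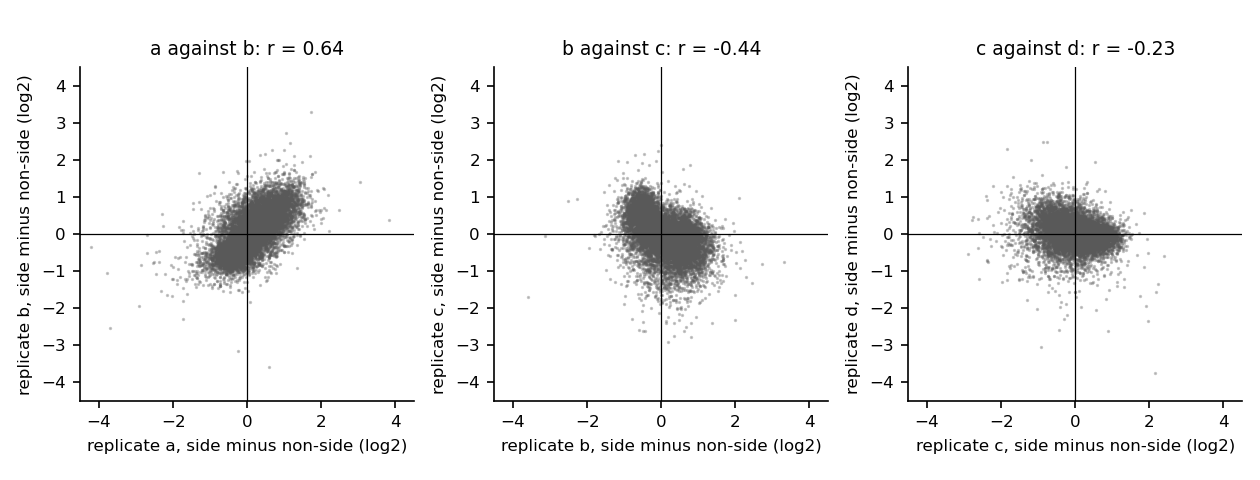
Side minus non-side population difference (log2) of 9888 genes, one replicate letter against another, a point per gene. The cloud of a against b runs upward (r = 0.64), that of b against c runs downward (r = -0.44) and that of c against d leans downward (r = -0.23).

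Few genes held one sign throughout. All 4 letters were positive for 518 genes (5.24%) and negative for 368 genes (3.72%), while 3456 genes had 2 letters of each sign. A stricter count required that all 4 side population arrays lie on one side of all 4 non-side population arrays. This held for 100 genes on the higher side (1.01%) and 57 on the lower side (0.576%), a split that became 185 and 262 without the filter on low levels and 166 and 169 over every probe set. Among the 157, the differences had a median of 0.49 (0.20 to 0.93) for the higher genes and -0.55 (-1.59 to -0.26) for the lower genes, and 103 were at an unadjusted p under 0.05. Neither the sign count nor the stricter count carries a p, and the number that chance alone would give was not estimated. Separation of the arrays is thus a description and no evidence that a gene differs between the populations.

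Fitted within letters a and b alone, with a spread shared by all arrays, 905 genes (9.15%) passed an adjusted p of 0.05 in limma, 704 of them higher and 201 lower. Within letters c and d, 0 genes (0%) passed, with a smallest adjusted p of 0.317 and 437 genes at an unadjusted p under 0.05. The test of the difference between these contrasts itself called 0 genes (the smallest adjusted p was 0.0947, and 2655 genes had an unadjusted p under 0.05). The genes called in letters a and b did not show their direction in the arrays of letters c and d. Of the 704 higher genes, 286 (40.6%) were higher in c and d, with a median of 0.99 in a and b and -0.05 in c and d. Of the 201 lower genes, 141 (70.1%) were higher in c and d, with medians of -0.97 and 0.16. Over all tested genes, 52.2% were higher in c and d. Side population replicates a and b are also the arrays whose source label names no line, and replicate a is the one with the high actin ratio, so population, line and RNA integrity cannot be told apart within these letters.

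One array moved the counts more than any other. Without non-side population replicate c, 1216 genes were at an unadjusted p under 0.05 (923 higher, 293 lower) and 830 genes had arrays that did not overlap, yet limma still called 0 genes (smallest adjusted p 0.266). Without side population replicate a the count at an unadjusted p fell to 206, without non-side population replicate a also to 206, and without non-side population replicate b to 268. The cytosolic ribosomal protein genes had a mean log2 level of 14.28 in non-side population replicate c and of 14.75 to 15.21 in the other 7 sorted arrays.

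The genes of largest difference among those whose arrays did not overlap came from varied functions. On the higher side the largest was HDLBP (vigilin), an RNA-binding protein with many KH domains. It read 12386, 5784, 8118 and 8754 in side population replicates a to d and 3738, 3391, 5373 and 5663 in non-side population replicates a to d. The lowest side population array stood just above the highest non-side population array, and replicate a stood highest of all. The fitted difference was 0.93 ± 0.25 (SE), with an unadjusted p of 0.00206 and an adjusted p of 0.997 in limma. The 3 further probe sets of the gene gave 0.46 to 0.93. Their arrays overlapped in each case, and all 3 were negative in letter c.

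PSME4, which encodes the proteasome activator PA200, read 3077, 3892, 2461 and 2964 in the side population and 1616, 1255, 2106 and 1794 in the non-side population. The gap between the groups was 355 intensity units at its narrowest, between the replicates c. Its difference was 0.88 ± 0.22 (SE). Within letters a and b alone it was 1.28 (adjusted p 0.0219 in limma), and within c and d it was 0.47.

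LYN, a kinase of the Src family, read 1734, 1461, 1349 and 1398 in the side population and 725, 705, 1273 and 1005 in the non-side population. Replicates a and b were apart by more than the spread in either group, while the replicates c nearly met. The difference was 0.71 ± 0.23 (SE). MAP4K4, a kinase upstream of JNK signalling, showed the same layout, with a difference of 1.32 in letters a and b and of 0.26 in c and d, while its 3 further sets gave -0.13 to 0.13.

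The other 6 genes on that side were ZNF416 (0.84), a zinc finger protein, BHLHE40 (0.80), a transcriptional repressor of the circadian and hypoxia response, PIK3R4 (0.72), the regulatory subunit of the class III phosphatidylinositol 3-kinase, TBL1X (0.71), a subunit of the NCoR corepressor complex, CEP19 (0.68), a centrosomal protein, and CNPPD1 (0.66). Of these, CEP19 had nearly equal differences in both pairs of letters, at 0.65 in letters a and b and 0.71 in c and d. It read 203.5 to 220.6 in the side population and 98.6 to 162.9 in the non-side population.

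**Figure D3:**
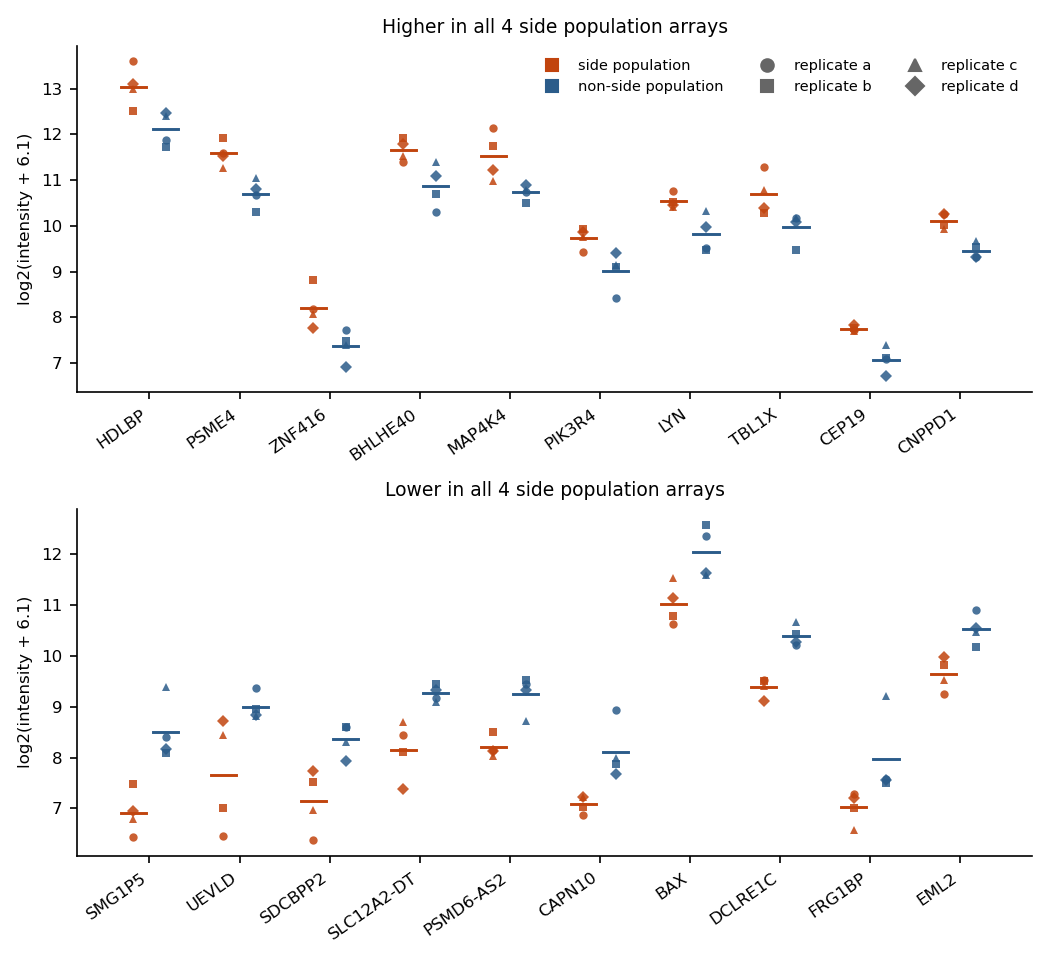
Level of 20 genes on each sorted array (vertical axis, log2(intensity + 6.1)), the 10 of largest difference on either side among those whose arrays do not overlap. Orange symbols are side population arrays and blue symbols non-side population arrays, the shape gives the replicate letter, and short lines are the means of 4 arrays. The gap between the nearest arrays is narrow for several genes, such as BAX, where replicate c of the side population reads 2978 and that of the non-side population 3091.

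The lower side was led by SMG1P5. This pseudogene of the kinase gene SMG1 read 81.2, 172, 105 and 117 in the side population and 334, 266, 661 and 280.3 in the non-side population. The groups were apart by 94 units at the nearest arrays, with the highest reading in non-side population replicate c. Its difference of -1.59 ± 0.32 (SE) was the largest among the genes whose arrays did not overlap. SDCBPP2 (-1.21) and FRG1BP (-0.94) are also pseudogenes, and SLC12A2-DT (-1.11) and PSMD6-AS2 (-1.04) are transcripts divergent from or antisense to a coding gene. The further sets of SLC12A2-DT gave -0.21 and 0.22. Probes for such copies can share sequence with the parent gene, so that their readings are uncertain. The difference of FRG1BP was -0.39 in letters a and b and -1.50 in c and d, and its non-side population replicate c, at 584, stood apart from 174 to 186 in the other 3.

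Another of the 10 lower genes was BAX, the BCL2 family protein that permeabilises the outer mitochondrial membrane in apoptosis. It read 1572, 1759, 2978 and 2253 in the side population and 5243, 6127, 3091 and 3159 in the non-side population. The groups were far apart in letters a and b and nearly touched in c. The difference was -1.02 ± 0.27 (SE), with an unadjusted p of 0.00207 and an adjusted p of 0.997. It was -1.77 within letters a and b (adjusted p 0.0106) and -0.27 within c and d.

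DCLRE1C, which encodes Artemis, the nuclease of DNA end joining, read 734, 721, 672 and 551 in the side population and 1180.3, 1377, 1630 and 1229 in the non-side population. Every non-side population array was at least 446 units above every side population array. The difference was -1.01 ± 0.20 (SE), and it had the smallest unadjusted p of the comparison, 0.000159, with an adjusted p of 0.993. It was -0.80 within letters a and b and -1.21 within c and d.

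The remaining coding genes were UEVLD (-1.33), CAPN10 (-1.03), a calpain protease, and EML2 (-0.88), a microtubule-associated protein. The reading of UEVLD rested on replicates a and b, where the side population was at 82 and 123 and the non-side population at 657 and 490. In c and d the difference was -0.24. Its other probe sets gave -0.14 and 0.17. EML2 had a further probe set at -2.03, but with overlapping arrays. That set read only 43.2 and 43.9 in side population replicates a and b.

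Probe sets of one gene measure the same gene at different stretches of its transcripts, so their agreement can be read within the same arrays. Among 4597 tested genes with at least 2 probe sets above the filter, 11739 pairs could be formed, and 59.1% of the pairs had the same sign, with a correlation of 0.233 between the differences of a pair. Agreement grew with the size of the difference, from 50.7% where the larger difference of the pair was under 0.1 to 65.1% between 0.5 and 1 and 65.7% at 1 or more. In that last class of 347 pairs the correlation was -0.345. Pairs that held a set with the suffix _x_at, whose probes can match other sequences too, shared a sign in 62.3%, and pairs of plain _at sets in 58.3%.

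The genes whose arrays did not overlap were read again through their next probe set. Of the 100 higher genes, 67 had one, and in 57 of these (85.1%) it pointed the same way, against 61.3% of all 4597 genes with a next set. In 6 of the 67 (8.96%) its arrays did not overlap either, while 1.11% of all next sets did not overlap on the higher side. Of the 57 lower genes, 26 had a next set, which pointed the same way in 16 (61.5%) and did not overlap in 5 (19.2%), while 1.44% of all next sets did not overlap on the lower side. All probe sets share the same 8 RNA samples, so that agreement between sets repeats the samples' differences and is no further replicate. Sets with the suffix _x_at made up a larger share of the lower genes. Of 681 such sets 1.91% did not overlap on the lower side, and of 5886 plain _at sets 0.493%.

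Of the 4597 genes with at least 2 probe sets above the filter, 9 had at least 2 sets without overlap on the higher side. In 5 of the 9 every set had the same sign. These were PSME4, LYN, SEC31A, LAMC1 and XPR1. SEC31A, LAMC1 and XPR1 had only 2 sets, so that their shared sign followed from the selection. SEC31A, an outer coat protein of the COPII vesicles that leave the endoplasmic reticulum, gave 0.59 and 0.76 with its 2 sets. Its stronger set read 2978, 2897, 3206 and 3039 in the side population and 1426, 1264, 2565 and 2171 in the non-side population, so that the gap was widest in a and b. LAMC1, the gamma-1 chain of laminin, gave 0.60 and 0.74, and XPR1, a phosphate exporter, 0.47 and 0.61.

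The other 4 had sets of opposite sign. APLP2, a relative of the amyloid precursor protein, had 8 sets from -1.01 to 0.94, and TNRC6B, which takes part in silencing by microRNAs, had 3 sets from -0.24 to 0.81. LRPPRC, which stabilises mitochondrial messenger RNAs, ranged from -0.32 to 0.60 over 4 sets. CHD1L, a chromatin remodeller, ranged from -1.09 to 0.53 over 3 sets. The sign reported for these genes therefore depended on which set was read.

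On the lower side, 11 of the 4597 genes had at least 2 probe sets without overlap, and in 6 of the 11 every set had the same sign. For those with only 2 sets, BAX and PMAIP1 among them, the shared sign followed from the selection. BAX gave -1.02 and -1.26 with its 2 sets. PMAIP1 (NOXA), a BH3-only protein of the BCL2 family, gave -0.53 and -0.57. Its main set read 4183, 5268, 6362 and 6193 in the side population and 9645, 7514, 7533 and 6996 in the non-side population, with the replicates c and d near each other.

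CFLAR, the caspase-8 inhibitor FLIP, was negative in all 10 of its sets, from -1.30 to -0.05. The set used for the gene, its brightest, gave -0.25 ± 0.24 (SE) with overlapping arrays, and 0.19 within letters c and d. TRAF4, an adaptor of TNF receptor signalling, gave -0.61 with its main set and -1.88 with the other set without overlap, while its remaining sets gave -0.07 and 0.12. The set at -1.88 differed by -3.43 in letter a and by -1.04 in letter d. Of BAX, PMAIP1, CFLAR and TRAF4, only BAX and PMAIP1 were without overlap in every set. Both had just the 2 sets that the selection required, against 10 for CFLAR and 4 for TRAF4. The selection thus fixed this contrast, which lends BAX and PMAIP1 no further support.

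**Figure D4:**
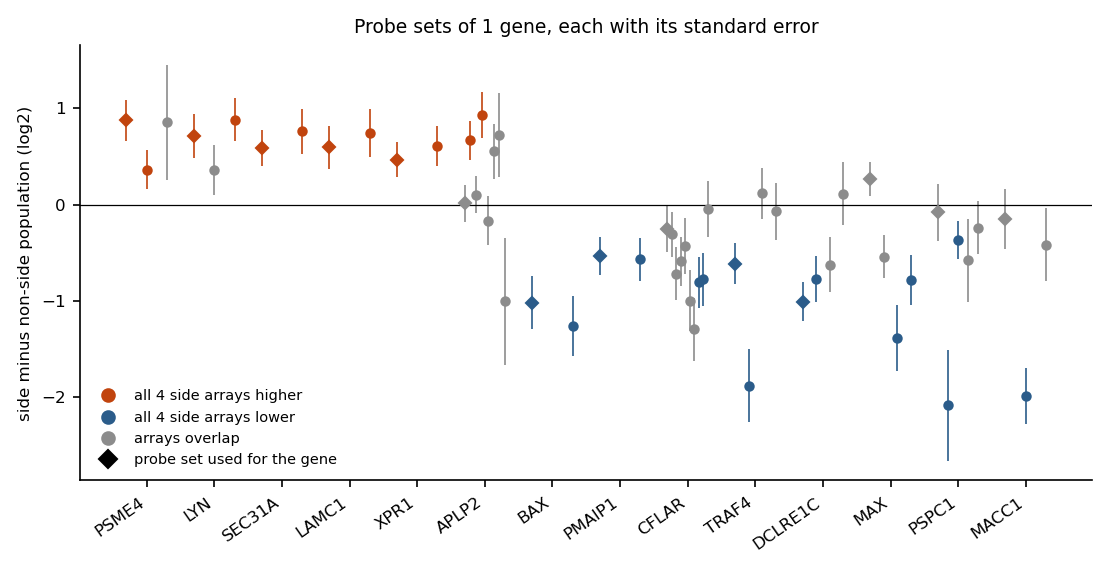
Difference between side and non-side population (vertical axis, log2) of each probe set of 14 genes, with its standard error as a bar. Diamonds mark the set used for the gene, orange marks sets whose side population arrays are all higher, blue marks sets with all lower and grey marks sets whose arrays overlap. APLP2, TRAF4, DCLRE1C and MAX have sets of both signs, and the other genes drawn have sets of one sign only. The 3 sets of MACC1 range from -1.99 to -0.15.

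The further genes with such sets included SS18, a subunit of the BAF chromatin remodelling complex, with 4 sets from -0.83 to -0.03, and PSPC1, a paraspeckle protein, with 5 sets from -2.08 to -0.08. The lowest set of PSPC1 differed by -5.13 in letter a and by -0.30 in letter d. Letter a holds the array with the high actin ratio, whose part here was not tested. In MAX, the dimerisation partner of MYC, 3 sets lay between -1.39 and -0.54 and the brightest at 0.27. The lowest set of MAX differed by -3.14 in letter a and by -0.32 in letter d. DOCK5, an activator of Rac, ranged from -1.05 to 0.53, DCLRE1C from -1.01 to 0.11, and the ribosomal protein gene RPS28 from -0.67 to 0.04.

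MACC1, a regulator of MET expression known from colon cancer, was singled out after its values were seen, since it held the only call outside a subset of the replicates. One of its 3 sets read 153, 209, 309 and 249 in the side population and 1003, 1289, 659 and 781 in the non-side population. The groups were apart by 349.5 units at the nearest arrays, and every letter was negative, from -2.67 to -1.08. The difference of this set was -1.99 ± 0.29 (SE). The brightest set by mean log2 level, which stood for the gene, gave -0.15 ± 0.30 (SE) with overlapping arrays, and the remaining set gave -0.41 ± 0.37 (SE). With a constant of 64 added before the logarithm that set stood for the gene, and limma called it at an adjusted p of 0.0478, the only gene called there. Choosing the set of highest arithmetic mean intensity also put that set in place of the other, with an adjusted p of 0.0500, just above the threshold, and this was the smallest adjusted p there. The adjusted p of MACC1 ran from 0.0478 to 1.00 over the alternatives. MET itself, the receptor of hepatocyte growth factor, read 3875, 2232, 3722 and 2586 in the side population and 2319, 1334, 3346 and 2843 in the non-side population, a difference of 0.37 ± 0.28 (SE), while its further sets gave -0.12 and -0.09.

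The ABC transporters came first among the gene groups, since the family holds the dye efflux pumps that define the sort. Not every member is such a pump. Of 17 ABC transporters measured, 12 were tested, 9 of them with the higher and 3 with the lower mean in side population cells. The median difference was 0.14, against 0.04 over all genes tested, and none was called. The arrays of all 12 overlapped, where only 1.01% of all tested genes lay apart on the higher side and 0.576% on the lower side. By letter the median was 0.31, 0.50, -0.26 and -0.09 in a to d. ABCG2, the pump most often held responsible for the side population, was below the filter on low levels. It read 76.2, 24.1, 239 and 158 in the side population and 82.3, 16.7, 118 and 171.5 in the non-side population, so that the groups overlapped and the gap was widest in letter c. Its difference of 0.29 ± 0.67 (SE) had a 95% interval from -1.15 to 1.74, too wide to place the gene.

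ABCB1 (MDR1), the drug efflux pump P-glycoprotein, was below the filter too. It read 7.9 to 40.7 in the side population and 8.0 to 36.7 in the non-side population, and the groups overlapped. ABCC1 (MRP1), a pump for glutathione conjugates, read 2369, 1824, 1938 and 2480 against 1246, 1297, 2645 and 1952. Its side population values were higher in letters a, b and d and lower in c, for a difference of 0.33 ± 0.25 (SE). The largest difference among the tested transporters was that of ABCF1 (0.50), a translation factor without a membrane domain, which was 1.05 in letters a and b (adjusted p 0.0275 in limma) and -0.05 in c and d.

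Of 19 genes used as stem cell markers, 11 were tested, 8 higher and 3 lower, with a median of 0.11. PROM1 (CD133) was below the filter but did not overlap, at 54, 33.7, 35.3 and 30.1 in the side population and 4.9, 26.6, 18.9 and 0.8 in the non-side population. All of these readings lie below the median intensity of every sorted array. MSI1 (Musashi-1), an RNA-binding protein of neural and intestinal progenitors, read at most 24.1 in either group.

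CD44, the hyaluronan receptor, read 775, 793, 1523 and 1643 in the side population and 933, 765, 1181 and 1489.8 in the non-side population. The replicates c and d were higher than a and b in both populations, and the difference was 0.07 ± 0.29 (SE). LGR5, a receptor of R-spondins that marks gastric and intestinal stem cells, differed by 0.26 ± 0.23 (SE). SOX2, a transcription factor of stem cells and foregut epithelium, differed by -0.32 ± 0.43 (SE), ALCAM (CD166) by 0.37 ± 0.25 (SE) and SOX9 by 0.32 ± 0.23 (SE), all with overlapping arrays.

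The Wnt pathway drives gastric stem cell renewal through Frizzled receptors and beta-catenin. Of 27 pathway genes measured, 24 were tested, 19 higher and 5 lower, with a median of 0.21. The letters disagreed, at 0.46, 0.63, -0.35 and 0.08. The receptor gene FZD7 read 3872, 4264, 2966 and 2616 in the side population and 2463, 2028, 3121 and 1901 in the non-side population. Letters a, b and d had the higher side population value and c did not, for a difference of 0.53 ± 0.23 (SE, unadjusted p 0.0341, adjusted p 0.997 in limma). FZD2 differed by 0.57 and the target CCND1 (cyclin D1) by 0.59, both with overlapping arrays. The second set of FZD2 gave -0.04 and that of CCND1 0.08.

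Of 22 Notch genes measured, 15 were tested, 11 higher and 4 lower, with a median of 0.14. JAG1, a ligand of the pathway, had no overlap, at 7357, 7835, 6863 and 6793 in the side population and 4339, 5416, 6303 and 5971 in the non-side population. The gap between the nearest arrays was 490 units, and the difference was 0.40 ± 0.18 (SE), which is 1.32-fold. The receptors NOTCH1 (0.49) and NOTCH2 (0.33) overlapped. ADAM17, a protease that sheds Notch receptors and many ligands, differed by 0.16, and the target HEY1 by 0.02. Only 4 of 15 Hedgehog genes were tested, 2 on either side. SMO, the signal transducer, read 117 to 211 in the side population and 86.3 to 204 in the non-side population and was below the filter, and the transcription factor GLI3 differed by -0.34 ± 0.27 (SE).

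Genes of G2/M and mitosis leaned the other way. Of 39 tested, 28 had the lower and 11 the higher mean in side population cells, with a median of -0.11 against 0.04 over all genes tested. Centring the arrays moved both alike, to 0.02 and 0.18. At an unadjusted p under 0.05, 7 were lower and 0 higher, where 1.21% of all tested genes were lower. In all 4 letters 7 were lower, where 3.72% of all tested genes were, and limma called none. By letter the median was 0.19, 0.08, -0.13 and -0.64, so that it was negative only in c and d and mostly in d. It was 0.17 within letters a and b and -0.41 within c and d. The genes named next were picked for a small unadjusted p or from earlier results. They were lower in all 4 letters and do not stand for the group in a and b. CENPA, the centromeric histone H3 variant, had no overlap, at 618.5, 568, 735 and 569.5 in the side population and 1029, 1520.0, 898 and 866 in the non-side population. Replicate b had the widest gap and c the narrowest, and the difference was -0.76 ± 0.23 (SE).

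PLK1, the mitotic Polo-like kinase, read 497.5, 224, 481 and 613 in the side population and 671, 491, 857 and 973 in the non-side population. It was lower in every letter, although the groups overlapped, for a difference of -0.76 ± 0.31 (SE). AURKB (Aurora B kinase) differed by -0.59 and NDC80, a kinetochore protein, by -0.57. Genes of G1/S and DNA replication had 19 higher and 10 lower of 29 tested, with a median of 0.07. They ranged from CDC45, part of the replicative helicase (-0.46), and GINS1 (-0.38) to the licensing factors MCM3 (0.57) and CDT1 (0.72, with a second set at -0.09). The arrays overlapped in all 29, where only 1.01% of all tested genes lay apart on the higher side and 0.576% on the lower side.

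Among 12 tested BCL2 family genes, 6 were higher and 6 lower, with a median of 0.00. BAX and PMAIP1, described above, were the only members whose arrays did not overlap, 2 of 12 on the lower side, where 0.576% of all tested genes stood. Among 20 tested p53 targets, of which BAX is also one, 12 were higher and 8 lower, with a median of 0.11. In the list of DNA end joining and repair 10 of 16 were higher, with a median of 0.16. LIG3 (DNA ligase III) differed by 0.80 ± 0.27 (SE) with overlap, while its further sets gave only -0.03 to 0.27. PRKDC, the catalytic subunit of DNA-dependent protein kinase, differed by 0.51, also with overlap. DCLRE1C, which acts with PRKDC, stood at -1.01.

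Of 26 genes of ubiquitin conjugation and cullin adaptors, 19 were higher and 7 lower, with a median of 0.17. UBA1, the main ubiquitin-activating enzyme, read 12632, 8319.5, 8000.4 and 11180.1 in the side population and 4167, 3508, 9523 and 5376 in the non-side population. Only non-side population replicate c broke the separation, and the difference was 0.91 ± 0.28 (SE). UBE2O, a hybrid conjugating enzyme and ligase, differed by 1.23 ± 0.41 (SE). It was 2.22 in letters a and b (adjusted p 0.0219 in limma) and 0.24 in c and d. KLHL25, a cullin-3 adaptor, differed by 1.03 and UBE2S, which extends chains for the anaphase-promoting complex, by -0.40. ZNF652, a zinc finger repressor, had the lowest difference of all tested genes, at -1.99 ± 0.55 (SE). It read 90.2, 260, 1047 and 274 in the side population and 1253, 1520, 562 and 1709 in the non-side population, with letter c opposite to the other 3. Its further sets gave -0.10 and 0.37, and in the latter all 4 side population arrays lay above all 4 non-side population arrays.

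Stress and metabolic groups had medians near that of all genes. Immediate early genes, which react to cell handling within minutes, had 10 higher and 12 lower of 22, with a median of -0.02. EGR1 differed by -0.69 and FOS by -0.43, while DUSP6 differed by 0.45, all with overlap. The other 2 sets of EGR1 both gave 0.07. Heat shock protein genes had a median of 0.07 over 15, and the unfolded protein and amino acid stress genes one of 0.02 over 23, with PDIA4, an endoplasmic reticulum chaperone, at 0.69. Glycolysis and hypoxia genes had a median of 0.07 over 25, with NDRG1 at 0.49, and NRF2 targets one of 0.07 over 15. Cholesterol synthesis had a median of -0.01 over 17. Its member SQLE (squalene epoxidase) had no overlap, at 2637 to 3498 in the side population and 1787 to 2605 in the non-side population, and differed by 0.49 ± 0.20 (SE). Further sets of SQLE gave 0.08 and 0.20, with overlapping arrays.

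In several groups a median near 0 was made up of letters of opposite sign. The 42 oxidative phosphorylation genes had a median of 0.01, made up of -0.21, -0.40, 0.69 and -0.06 in letters a to d. The 50 cytosolic ribosomal protein genes had a median of 0.02, made up of 0.02, -0.17, 0.43 and -0.23. The 24 tested interferon response genes had 6 higher and 18 lower and a median of -0.12 (0.02 with centred arrays, where all genes stood at 0.18), made up of -0.30, -0.56, 0.53 and -0.06 by letter. USP18, an interferon-induced protease, was lower in all 4 letters, for a difference of -0.41 ± 0.27 (SE). In each of these groups letter c had the opposite sign to letter b.

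**Figure D5:**
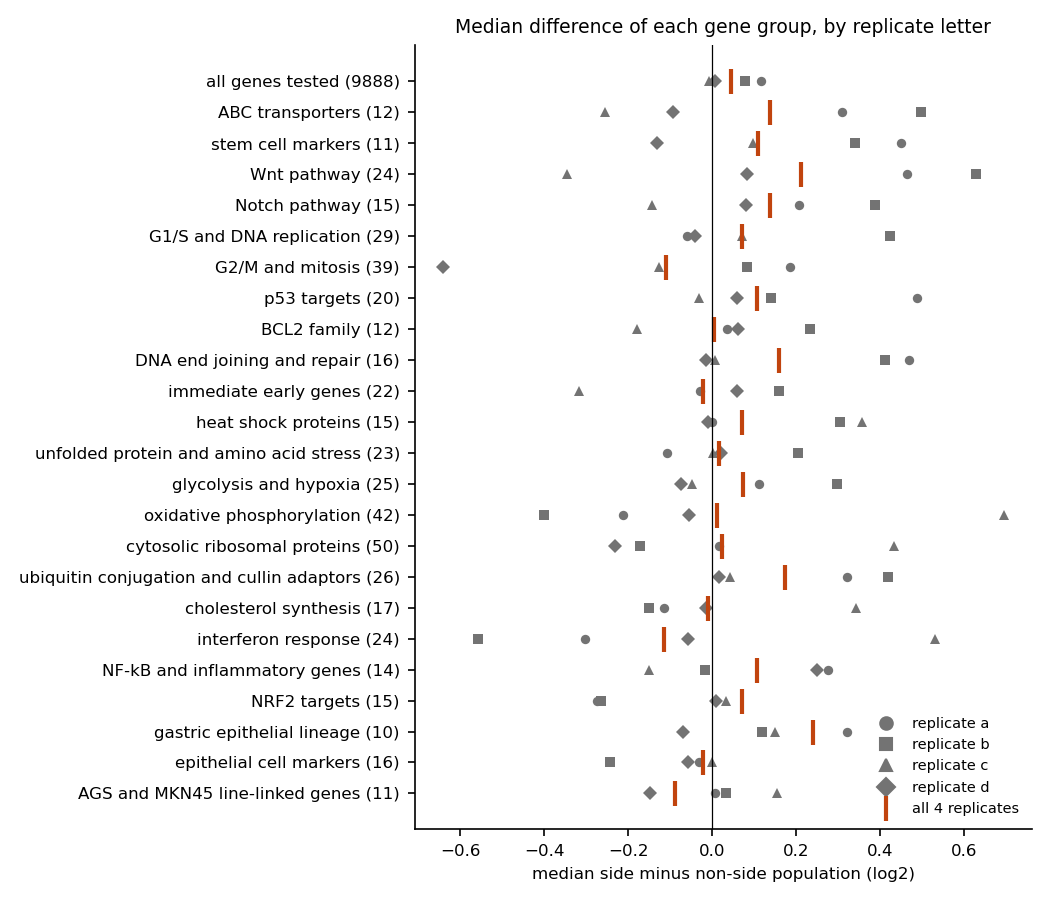
Median difference between side and non-side population (horizontal axis, log2) of each gene group with at least 10 tested genes, the number tested in brackets. Grey symbols are the medians within replicate letters a to d and orange bars the median of the fitted differences. For oxidative phosphorylation the letters spread from -0.40 to 0.69 around a median of 0.01, and for G2/M and mitosis from -0.64 to 0.19.

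Of 22 genes of NF-kB and inflammation, 14 were tested, 10 higher and 4 lower, with a median of 0.11. TNFAIP3 (A20), a feedback inhibitor of NF-kB, had no overlap, at 687, 746, 513 and 517 in the side population and 387.5, 440, 400 and 385 in the non-side population. The non-side population arrays were close together and the side population arrays were higher in each letter, for a difference of 0.59 ± 0.21 (SE, unadjusted p 0.0135 in limma). A second set of TNFAIP3 gave 0.21 with overlapping arrays, and letter c was negative there. NFKB2, a subunit of the factor, stood at -0.75 ± 0.32 (SE) with overlap.

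Of 19 genes of the gastric epithelial lineage, 10 were tested, 6 higher and 4 lower, with a median of 0.24. GATA4, a transcription factor of gastric epithelium, read 1699.9, 1463, 1160.5 and 2316 in the side population and 583, 563, 1581 and 1281 in the non-side population. Letter c again ran opposite to the other 3, and the difference was 0.83 ± 0.34 (SE), while its further sets gave -0.22 and 0.16. GATA6 differed by 0.46. Of 18 intestinal genes, 7 were tested, with a median of -0.02. Among 14 genes linked to differences between AGS and MKN45, 11 were tested, 5 higher and 6 lower, with a median of -0.09. The list was not split by the line in which a gene is higher, so its median cannot show whether the lines differed. CDH17, an intestinal cadherin, was lowest in replicate b of both populations (3782 and 2046), CLDN7 differed by -0.23, and the junction genes JUP and DSP differed by 0.61 and 0.26. Of 3 nuclear-retained RNAs, 1 was tested, the long non-coding RNA MALAT1. Its brightest set gave 0.43 ± 0.48 (SE), with side population replicate c at 12147 against 1581 to 2635 in the other 3. Of its 11 further sets, 9 were negative, down to -2.25. One of these read 1986, 1052, 1253 and 714.5 in the side population and 5134, 4814, 5505 and 4018 in the non-side population. All 4 side population arrays of that set lay lower, by at least 2033 units, and its difference was -2.04 ± 0.30 (SE). The direction of MALAT1 thus depended on which set was read.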

How the data were processed

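Total RNA of 10 samples was hybridised to single-channel human arrays of 54675 probe sets. The authors deposited linear intensity values made with GCOS 1.4, per the submitters' processing notes. Which algorithm summarised the probes is not stated in the sources used here. All arrays have a common trimmed mean, so the values were used as deposited. Of the probe sets, 41097 carried 1 gene symbol, 1801 several and 11777 none. Control sets were left out, and the set with the highest mean log2 value stood for a gene. Before log2, 6.1 was added, which is the 10th percentile of the intensities. Testing of genes at or above the median level (intensity 149) used R 4.3.3 with limma 3.58.1 (empirical Bayes with a trend, 3 groups, no block), and the code was tested on simulated data. Depth is not defined for arrays, and their number limits the precision. Named genes were the 10 of largest difference in each direction without overlap, genes with at least 2 such probe sets, members of 28 gene lists by unadjusted p, and fixed pump, stem cell and earlier leading genes. MACC1 was added after its values were seen. The comparison, lists and genes were chosen with earlier results of these data known. Alternatives changed the constant, filter, normalization, probe set choice, model and arrays used.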

Additional observations from a re-analysis of the deposited data

Results flagged for a closer look

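Of 180 groups of 4 arrays examined over 90 named genes, 8 had an array whose gap to its nearest neighbour took up more of the group's range than Dixon's 95% critical value allows, a limit at which chance marks about 1 group in 20. For PSPC1 the gap was 0.966 of the range, with non-side population replicate a at 4571. For FRG1BP it was 0.947, with non-side population replicate c at 584. For APLP2 it was 0.933, with side population replicate d at 11960.4 as the highest array. For CDH17 it was 0.878, with side population replicate b at 3782 as the lowest. XPR1 had a gap of 0.871, with side population replicate d at 1764 as the lowest, and LIG3 one of 0.871, with non-side population replicate d at 381 as the highest. TBL1X had a gap of 0.853, with non-side population replicate b at 702 as the lowest, and NDRG1 one of 0.841, with non-side population replicate c at 1236 as the highest.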

How the results depend on the processing

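The count of 0 called genes stayed at 0 in all alternatives but the constant of 64 (1 gene) and the fit within letters a and b (905). The smallest adjusted p ranged from 0.0106 to 1.00. The titles name the same replicate group for both arrays of a letter, but no label says what such a group shared. Same-letter deviations from the group means correlated at 0.21, 0.50, -0.12 and 0.36 in a to d. In a and b the arrays of both populations matched their own letter best, and in c neither did. The main fit therefore took the arrays as unpaired, and the pairing remains unsettled. With the letters as a replicate block limma called 0 genes (smallest adjusted p 0.186), and 442 were at an unadjusted p under 0.05, against 430 without it. That count was 928 without a filter, 237 with the filter at the 75th percentile, 1009 with arrays centred on their medians, 849 over every probe set and 851 with array weights, and 206 to 1216 when 1 array was left out. Genes without overlap numbered 447, 75, 535 and 335 in the first 4 of these settings, and 229 to 830 with 1 array left out (157 in full). Genes with 1 sign in all letters numbered 2153, 371, 1775 and 1619, and 1280 to 4235 with 1 letter left out (886 in full). The counts without overlap and with 1 sign can only rise when an array or letter is left out. The share of probe set pairs with the same sign was 53.7%, 63.3% and 64.5% without a filter, with the stricter filter and with centring. Of 90 named genes, 71 kept their sign in all 26 alternatives, and 32 passed an adjusted p of 0.05 within letters a and b. Several alternatives could not change a sign, namely the fits without unsorted arrays, without a trend or with the replicate block. Genes picked because their arrays did not overlap could not change sign when arrays were left out. The count of 71 is therefore no measure of robustness. Where another probe set was chosen, UEVLD became 0.18 (constant of 1, and quantile normalization). PSPC1 became 0.056 with centring. With array weights APLP2 was -0.027, RPS28 -0.046, MSI1 -0.173 and HEY1 -0.065. With only arrays labelled AGS, MSI1 was -0.36, HEY1 -0.042 and SMO -0.10. Within letters a and b, RPS28 was -0.12 and CD44 -0.11. Within letters c and d, APLP2 was -0.038, PSPC1 0.038, CFLAR 0.189, ABCC1 -0.052, ABCF1 -0.052, SOX2 0.017, SOX9 -0.182, HEY1 -0.227, NOTCH2 -0.054 and PDIA4 -0.042. With 1 array left out, ABCB1 ranged from -0.34 to 0.40, ABCG2 from -0.32 to 0.87, APLP2 from -0.13 to 0.11, CD44 from -0.11 to 0.25, HEY1 from -0.17 to 0.14, MACC1 from -0.332 to 0.068, MALAT1 from -0.195 to 0.784, MSI1 from -0.18 to 0.34, PSPC1 from -0.22 to 0.24, RPS28 from -0.16 to 0.14 and SOX2 from -0.65 to 0.14. Except for the change of probe set, and the fewer arrays of the subsets, the cause was not tested.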

Other observations

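The 2 arrays of unsorted cells, which entered no comparison, did not always lie near the non-side population. BAX read 5010 and 6489 in unsorted cells, close to non-side population replicates a and b (5243 and 6127). DCLRE1C read 611 and 645, within the range of the side population (551 to 734) and below every non-side population array (1180.3 to 1630). PSME4 read 2761 and 2787, also within the side population range. LYN, at 1030.2 and 996, fell inside the non-side population range. PMAIP1, at 1999 and 2128, lay below all 8 sorted arrays (4183 to 9645). PLK1, at 2019 and 1454, and SQLE, at 8941 and 8012, lay above all 8 sorted arrays. Their labels name AGS as the source.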
